A study of Mus musculus with 9 samples.

Results

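Myosins and kinesins are the motor proteins that turn ATP into movement along the cytoskeleton. Their genes were taken from the authors' table as every name that starts with Myo, Myh or Kif followed directly by a digit, leaving out Kif7 and names ending in Rik. The rule found 56 genes of 13499 in all, made up of 26 myosins, 11 kinesins listed as mitotic and 19 other kinesins. All 56 reached 1 CPM (counts scaled to a common library total) in at least 3 libraries and were tested, and no name was that of a binding protein, pseudogene or antisense RNA.

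RNA was sequenced from C57BL/6 mouse embryonic stem (ES) cells, kept on gelatine in a serum-replacement medium with LIF, a cytokine that holds ES cells undifferentiated. Cells were separated in a cytometer by their GFP-Myc or EYFP brightness, giving populations named High, Medium and Low for their level of Myc, a transcription factor that promotes growth and division. The labels do not say which reporter belongs to which sample, and all 3 populations share the strain and the culture. Each population has 3 libraries described as biological replicas, and nothing more is said of separate cultures, so p-values measure the spread between these libraries. The comparison asked how the motor genes differ with Myc level.

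Myosins walk along actin filaments. They shape the cell cortex, carry cargo near the membrane and, as the filament-forming class II, contract. Kinesins walk along microtubules, most of them towards the plus end: some haul vesicles and organelles, others build and take apart the mitotic spindle, which dividing ES cells use often. Several motors are textbook markers of differentiated cells, among them Kif1a and Kif5c in neurons, Myo1f and Myo1g in blood cells and the sarcomeric myosin heavy chains in muscle.

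Recovered reads per library ran from 11114936 to 16755566. Values are the authors' normalised read counts, a signal on a scale close to CPM, given in the order of replicates 1, 2 and 3. Myc RNA followed the labels, from 24.2 to 27.6 in Low, 65.5 to 70 in Medium and 101 to 112 in High. All 12 ES cell markers listed (among them Pou5f1, Sox2 and Nanog) were measured, with a summed signal of 5160 to 6790 in Low, 6140 to 6790 in Medium and 6460 to 7250 in High. In the test of High against Low given below, 6 of the 12 were higher and 0 lower (13.8% and 14.6% of all genes). The Low libraries differed most among themselves: genes with a long annotated transcript, at least 4729.5 nt, deviated from those of at most 2100 nt by a median of 0.28 on the log2 scale in Low replicate 1, -0.59 in Low replicate 2 and -0.27 in Low replicate 3. The same difference ran from -0.05 to 0.30 in Medium and from -0.07 to 0.25 in High. Motor genes have long transcripts, with a median of 6138 nt against 3288 nt for all genes, so class medians and counts of calls are also given after a correction for transcript length.

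The promoters of the mitotic kinesins shared a short run of letters that few other motor promoters held. RefSeq promoter entries (GRCm38.p6), which run from 250 bases before to 50 after the start of a gene, matched 48 of the 56 motors; those without an entry include Myo1d, Kif20a, Kif13b, Kif5a, Kif21b, Myo5b and Kif5b. The letters TTTGAA, or TTCAAA on the other strand, are those of the cell cycle homology region, an element known from genes expressed late in the cell cycle. They stood in 9 of 10 mitotic kinesin promoters (90%), all but that of Kif18a, in 2 of 15 promoters of other kinesins (13.3%, Kif1a and Kif27) and in 2 of 23 myosin promoters (8.7%, Myo18a and Myo1h). Of the 27025 genes with a promoter entry, 20.2% held them. Stretches of 8 mitotic kinesin promoters are shown with these letters in capitals, each read 5′ to 3′ on the strand of the gene, because they are what these promoters share outside the rule that chose the genes.
Kif11, chr19:37376318-37376383, plus strand: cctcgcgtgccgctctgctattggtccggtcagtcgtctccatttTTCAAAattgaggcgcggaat
Kif14, chr1:136467598-136467640, plus strand: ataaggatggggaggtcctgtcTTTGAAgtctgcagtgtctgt
Kif15, chr9:122951017-122951082, plus strand: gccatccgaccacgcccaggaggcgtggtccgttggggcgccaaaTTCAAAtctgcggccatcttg
Kif18b, chr11:102925105-102925166, minus strand: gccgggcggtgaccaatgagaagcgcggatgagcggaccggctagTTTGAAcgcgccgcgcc
Kif20b, chr19:34922320-34922377, plus strand: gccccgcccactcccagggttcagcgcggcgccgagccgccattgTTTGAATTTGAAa
Kif22, chr7:127042417-127042482, minus strand: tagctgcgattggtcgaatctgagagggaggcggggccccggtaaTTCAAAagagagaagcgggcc
Kif23, chr9:61946780-61946842, minus strand: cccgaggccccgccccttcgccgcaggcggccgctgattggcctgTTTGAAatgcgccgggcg
Kif2c, chr4:117178855-117178920, minus strand: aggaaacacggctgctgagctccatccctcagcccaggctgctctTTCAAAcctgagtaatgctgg

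In Kif11, Kif15 and Kif22 the first base of the match lies 19, 19 and 17 bases before the annotated start, and in Kif18b, Kif23 and Kif20b it lies at positions 4, 3 and 8 after it. Kif20b carries the letters a further time directly behind the first copy, and Kif15 and Kif22 hold another match 234 and 215 bases before the start. The matches shown for Kif2c and Kif14 also lie farther off, 103 and 228 bases before the start. For both, the RefSeq start lies well inside the gene as GENCODE annotates it. CCAAT, or ATTGG on the other strand, stood in 6 of 10 mitotic kinesin promoters (60%), against 33.3% for other kinesins, 34.8% for myosins and 41.1% of all genes. The E-box CACGTG, which reads the same on both strands and is the textbook binding sequence of Myc with Max, stood in 2 of the 48 promoters (4.17%, Kif1a and Myh7b), against 8.09% of all genes. The stretch of Kif1a with this E-box in capitals is shown because Kif1a is the motor gene that was lowest in High relative to Low. As in Kif2c and Kif14, this RefSeq start lies well inside the GENCODE gene.
Kif1a, chr1:93082531-93082656, minus strand: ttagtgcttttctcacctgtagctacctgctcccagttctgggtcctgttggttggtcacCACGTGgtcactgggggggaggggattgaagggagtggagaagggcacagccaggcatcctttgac

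A match of letters is a description of the sequence and no binding was measured.

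Between High and Low, the largest differences among the motors were in the class I myosins Myo1f and Myo1g, more than 4-fold higher in High, and in the cargo kinesin Kif1a, more than 3-fold lower. Of the 56 motor genes, 15 passed the test (limma, Benjamini-Hochberg adjusted over all 13499 genes, threshold 0.05), 11 of them higher and 4 lower in High. That is 26.8%, against 28.4% of all genes, so motors as a whole were called about as often as any gene. By class, 10 of 26 myosins passed (9 higher and 1 lower, 38.5%), 3 of 19 other kinesins (all lower, 15.8%) and 2 of 11 mitotic kinesins (both higher, 18.2%). Over all genes 13.8% were higher and 14.6% lower. The median log2 fold change was 0.31 for myosins, 0.12 for mitotic kinesins and 0.03 for other kinesins, against 0 for all genes. Corrected for length, it was 0.13 for myosins, 0.13 for mitotic kinesins and -0.11 for other kinesins, against 0.01 for all genes.

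The split depended on the scale and on the Low libraries. With every library rescaled to the same total, 4 motors were higher and 4 lower (14.3%). Of all genes 27.4% then passed, 1481 higher and 2213 lower. Without Low replicate 1, 26 were higher and 4 lower, when 43.3% of all genes passed (22.7% higher and 20.6% lower). With the replicate number as a block, 17 were higher and 5 lower, when 38.8% of all genes passed (20.2% higher and 18.6% lower). After the length correction 15 were higher and 6 lower, 37.5% of the motors against 37.8% of all genes (19.8% higher and 18.1% lower). By class these were 10 higher and 2 lower myosins, 5 higher mitotic kinesins and 4 lower kinesins not listed as mitotic.

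**Figure D1:**
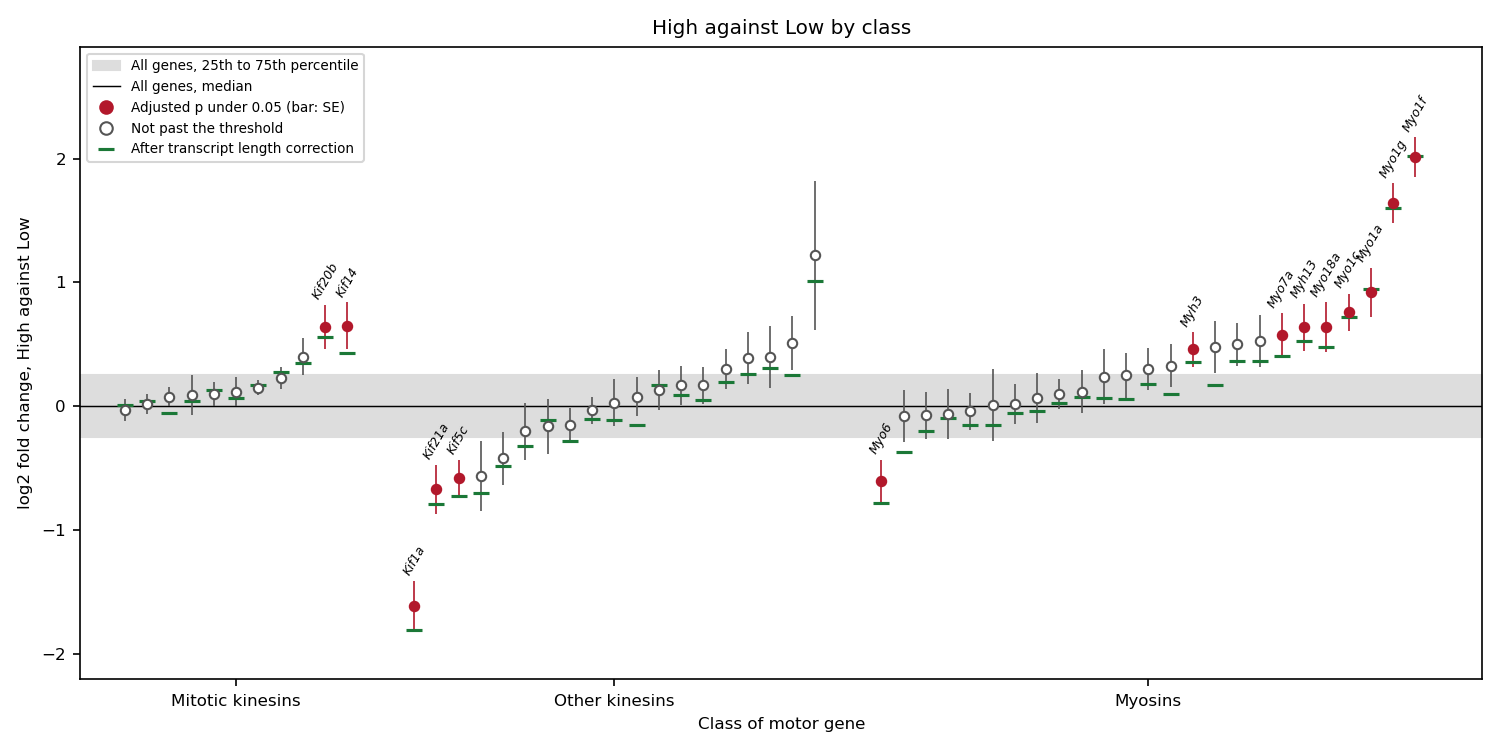
Log2 fold change of the motor genes in High against Low, ordered within its class, with bars for the standard error. Red points passed the test, green dashes give the value after the transcript length correction, and the grey band holds the middle of all genes. Myo1f and Myo1g stand highest and Kif1a lowest, and after the length correction these 3 are at 2.02, 1.60 and -1.80.

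Myosins of class I are single-headed motors that tie actin to membranes. Myo1f, Myo1g and Myo1c were higher in High than in Low, and Myo1a also passed but had a signal under 1 in every Low library. Myo1f, on chr17:33555707-33607764 (GRCm38, plus strand, 28 exons), was at 7.74, 12.7 and 10.7 in Low, at 28.1, 32.5 and 30.3 in Medium and at 40.3, 44.5 and 47.1 in High. The 3 populations did not overlap, and every Medium library lay between the Low and the High ones. The means were 10.4 ± 2.5 (SD, n = 3), 30.3 ± 2.2 and 44 ± 3.43, so that High exceeded Low 4.23-fold (log2 fold change 2.01 ± 0.16 SE, adjusted p = 2.7e-05, limma). Myo1f was called under all 26 alternatives run, with log2 fold changes from 1.76 to 2.37.

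Myo1g, on chr11:6506548-6520965 (minus strand), is another member of the membrane-bound class. It was at 1.34, 0.984 and 1.91 in Low, at 4.06, 3.87 and 4.72 in Medium and at 6.93, 6.93 and 5.39 in High. The populations again did not overlap, at a level far below that of Myo1f. Low replicate 2 was under 1 CPM, so Myo1g met the filter of 3 libraries only with Medium or High ones. To that extent the filter favoured a difference. High exceeded Low 4.55-fold in mean signal (log2 fold change 1.64 ± 0.16 SE, adjusted p = 0.000113), and the log2 scale with its pseudocount understates the change of such low genes.

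Myo1c, a widely expressed class I motor of membrane traffic, was at 65.6, 41 and 47.4 in Low, at 84.9, 71.4 and 77.1 in Medium and at 90.7, 85.4 and 81.2 in High. Low replicate 1 came nearest to the other populations but stayed under both. Myo1c had a log2 fold change of 0.76 ± 0.15 (SE, adjusted p = 0.00545), and the call was lost only with Low replicate 1 standing alone for its population (0.38, adjusted p = 0.0582). Myo1a, a motor of the intestinal brush border, was at 0.985, 0.447 and 0.159 in Low, at 1.39, 1.62 and 1.34 in Medium and at 1.98, 1.33 and 2.17 in High, down to 2 reads in a library. It passed the filter through the Medium and High libraries, since of the Low ones only replicate 1 reached 1 CPM. The filter thus favoured a difference, and the log2 fold change of 0.92 is a description. Myo1d, Myo1e and Myo1h did not pass, with log2 fold changes of 0.02, 0.12 and -0.06.

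**Figure D2:**
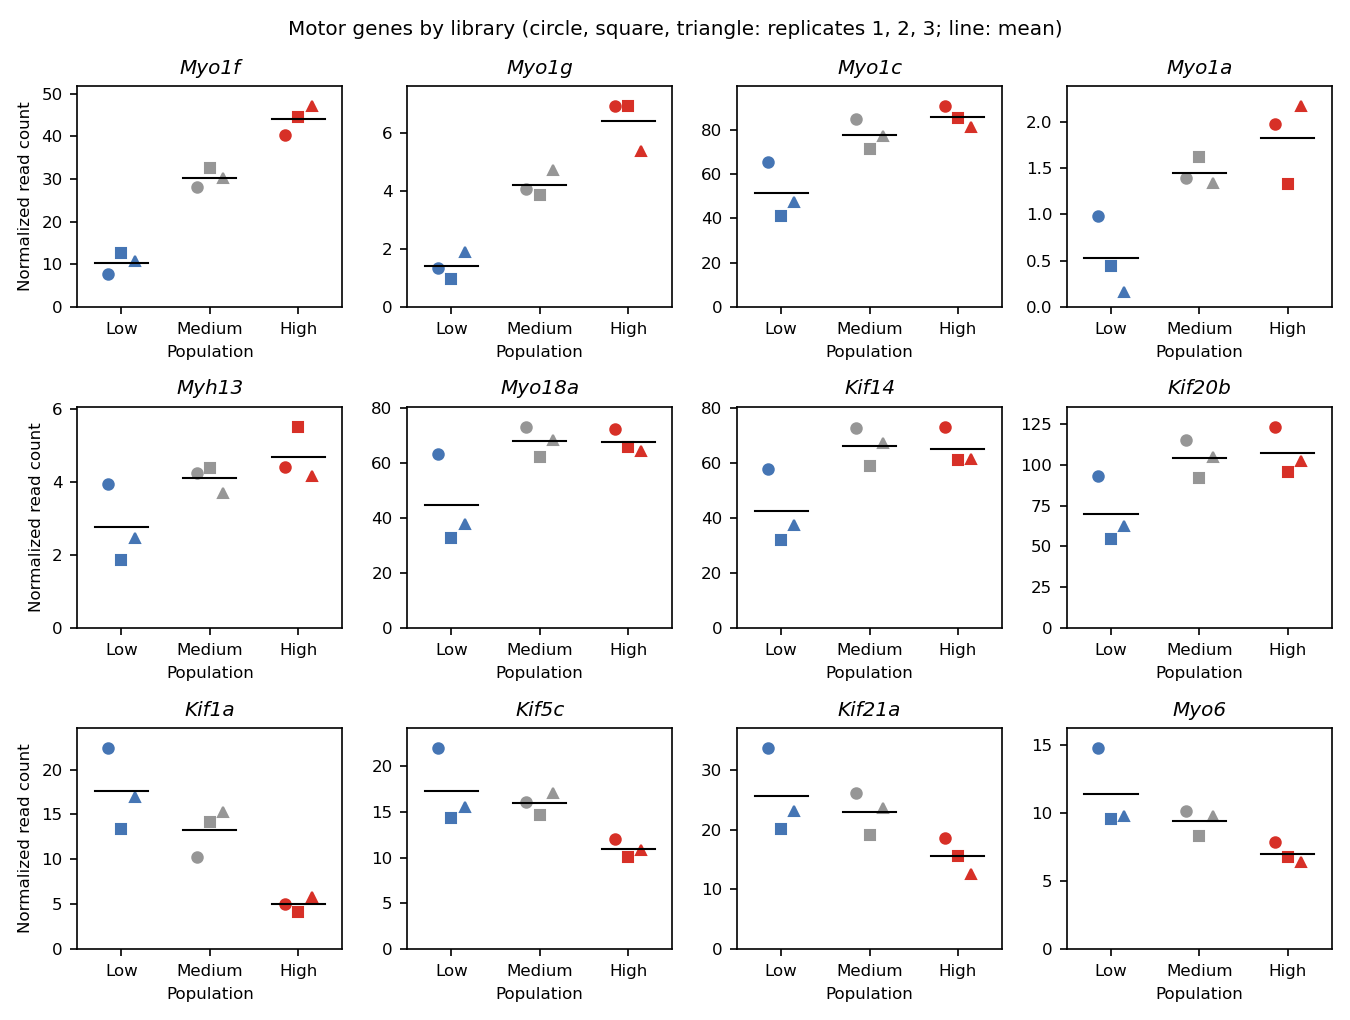
Normalised read count in each library for 12 motor genes, with circles, squares and triangles for replicates 1, 2 and 3 and a line for the population mean. Myo1f and Myo1g step up from Low to Medium to High without overlap, whereas Kif1a, Kif5c and Kif21a are lowest in the 3 High libraries.

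Markers of other cells were read beside these genes, since Myo1f and Myo1g are known from blood cells. Of 9 leukocyte markers, Laptm5, a lysosomal membrane protein of blood cells, and Coro1a, an actin regulator, were measured. The pan-leukocyte Ptprc and Cd53, Spi1, Tyrobp, Itgb2, Cd52 and Fcer1g were not analysed here. Laptm5 was at 35.9, 37.3 and 38.1 in Low, at 70.4, 67.6 and 68.8 in Medium and at 88.7, 87 and 83.7 in High (log2 fold change 1.20, adjusted p = 5.96e-06), whereas Coro1a had a log2 fold change of -0.19 (adjusted p = 0.371). The summed signal of both was 45 to 46.8 in Low and 91.2 to 95.9 in High. Their part in the rise of Myo1f and Myo1g was not tested. In sorted bulk cells, fewer cells of a type and less RNA per cell cannot be told apart.

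Other unconventional myosins carry cargo or organise actin. Myo18a, which links actin to the Golgi, was at 63.1, 32.6 and 37.8 in Low, at 72.9, 62 and 68.4 in Medium and at 72.2, 65.8 and 64.1 in High. Low replicate 1 lay inside the range of the Medium libraries and just under the lowest High one, and the other Low libraries were far lower. This gave a log2 fold change of 0.64 ± 0.2 (SE, adjusted p = 0.0374), lost in 12 of 26 alternatives. Myo7a, a motor of the sensory hair bundle, had a log2 fold change of 0.58 (adjusted p = 0.0324), a call that 18 of 26 alternatives kept. It was lost with rescaling to equal totals, with only the 2 populations compared in the fit, with Low replicate 1 alone, and without Low replicate 2, Low replicate 3 or any one of the High libraries (adjusted p of at most 0.46).

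Myo6, the motor that walks towards the minus end of actin, was the only myosin lower in High. Its values by library are printed because of that direction, chosen after they were seen: 14.8, 9.57 and 9.78 in Low, 10.2, 8.36 and 9.83 in Medium and 7.86, 6.76 and 6.44 in High. High lay under every Low and every Medium library. The log2 fold change was -0.60 ± 0.17 (SE, adjusted p = 0.023) and -0.78 after the length correction, and 23 of 26 alternatives kept the call. Myo5a, a vesicle motor whose transcript of 11702 nt is among the longest of the motors, had a log2 fold change of -0.08 (adjusted p = 0.822) that became -0.37 after the length correction (adjusted p = 0.00443).

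Myo10, the motor of filopodial tips, was the second most abundant myosin per length, at 28.5 per kb of transcript. It was at 263, 147 and 187 in Low, at 279, 238 and 277 in Medium and at 254, 223 and 214 in High. Low and High overlapped through Low replicate 1 and the log2 fold change of 0.25 did not pass (adjusted p = 0.339). Without Low replicate 1 it was 0.46 (adjusted p = 0.0112).

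Class II myosins form the filaments that contract. The most abundant myosin was Myh9, the main nonmuscle heavy chain, at 44.4 per kb. It was at 528, 191 and 257 in Low, at 392, 326 and 377 in Medium and at 335, 289 and 277 in High. Low replicate 1 was the highest library of all and Low replicate 2 the lowest, so the Low range spans both other populations. The log2 fold change of 0.01 ± 0.29 (SE, adjusted p = 0.977) depended on the processing: it was 0.43 (adjusted p = 0.026) without Low replicate 1 and -0.15 after the length correction. Myh10, the second nonmuscle heavy chain, had a log2 fold change of 0.24 (adjusted p = 0.446) and Myh14, the third, of 0.30 (adjusted p = 0.207). The share of Myh9 in the signal per kb of these 3 genes stayed between 75.6% and 82.2% in all 9 libraries, and the difference of that share between High and Low had p = 0.2 in an exact permutation test (two-sided), where 0.1 is the smallest p that 3 libraries a side allow.

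Sarcomeric heavy chains were at a few normalised reads per library. Myh13, known from eye muscles, was at 3.94, 1.88 and 2.47 in Low, at 4.24, 4.4 and 3.7 in Medium and at 4.42, 5.51 and 4.18 in High. The lowest High library was above the highest Low one (log2 fold change 0.64 ± 0.19 SE, adjusted p = 0.033). The call was kept in 16 of 25 alternatives and lost with edgeR, with rescaling, with only 2 populations, with Low replicate 1 alone, and without Low replicate 2, Low replicate 3 or any one of the High libraries (adjusted p of at most 0.484). Myh3, the embryonic skeletal chain, had a log2 fold change of 0.46 (adjusted p = 0.0386). It lost the call after the length correction (0.36, adjusted p = 0.101) and was called in 12 of 25 alternatives. Both belong to a row of near-identical genes on chromosome 11, so that reads may be shared among them. Of 13 muscle markers, 6 were measured, and 1 was higher and 1 lower in High (13.8% and 14.6% of all genes). Their median log2 fold change was 0.05. Des, Actn2, Tnnt1 and Tnni3 did not pass, at -0.1, -0.15, 0.2 and 0.34. The giant sarcomere protein Ttn was higher in High (log2 fold change 2.29, adjusted p = 0.000332, limma), and its change was 1.18 after the length correction. Acta1, the skeletal actin, reached 1 CPM only in the 3 Low libraries (1.2, 2.15 and 1.11) and so had to differ. Ckm, Myod1 and Myog were not analysed here. The part of muscle markers in the rise of Myh13 and Myh3 was not tested.

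Of the 19 kinesins not listed as mitotic, 3 passed, all lower (15.8%, against 14.6% of all genes lower), which is close to the background. They were Kif1a, Kif5c and Kif21a. Kif1a, on chr1:93015464-93101951 (minus strand, 48 exons), is a kinesin-3 that carries synaptic vesicle precursors along axons. It was at 22.4, 13.4 and 17 in Low, at 10.3, 14.2 and 15.3 in Medium and at 5.08, 4.09 and 5.79 in High. The High libraries were all under the Low and the Medium ones, whereas Low and Medium overlapped. The means were 17.6 ± 4.51 (SD, n = 3), 13.3 ± 2.61 and 4.99 ± 0.856, so Low exceeded High 3.53-fold. Its log2 fold change was -1.61 ± 0.2 (SE, adjusted p = 0.000406), and all 26 alternatives kept the call, from -1.97 to -1.24.

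Kif5c, on chr2:49619298-49774778 (plus strand), is a neuronal heavy chain of kinesin-1, the classical transport kinesin. It was at 22, 14.3 and 15.6 in Low, at 16.1, 14.7 and 17.1 in Medium and at 12.1, 10.1 and 10.8 in High. High lay under all other libraries, and Low and Medium overlapped. For Kif5c the log2 fold change was -0.58 ± 0.15 (SE, adjusted p = 0.0185), lost without High replicate 2 and without High replicate 3, with an adjusted p of at most 0.0692.

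Kif21a, a kinesin-4 that slows microtubule growth at the cell cortex, was at 33.7, 20.2 and 23.2 in Low, at 26.1, 19.2 and 23.7 in Medium and at 18.7, 15.6 and 12.6 in High. It shows the same order, with High under every Low and Medium library. The log2 fold change was -0.67 ± 0.2 (SE, adjusted p = 0.0331), kept by 21 of 26 alternatives. The other 16 kinesins of this class did not pass in either direction.

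Neuron markers were read beside Kif1a and Kif5c. Of 10, 7 were measured, with a summed signal of 196 to 253 in Low, 263 to 302 in Medium and 295 to 340 in High. Most of that rise came from Stmn2, with a mean of 107 in Low and 216 in High, and the median log2 fold change of the 7 was 0.07. Stmn2, Gap43 and Nefl were higher in High (log2 fold changes 1.02, 0.87 and 0.66) and Tubb3 was lower (-0.30). Over all genes 13.8% were higher and 14.6% lower. Map2, Snap25 and Syp did not pass (-0.05, 0.07 and -0.47). Syt1, Rbfox3 and Dcx were not analysed here. Of 9 trophoblast markers measured, 8 were lower in High (14.6% of all genes were). Already in Medium against Low, 7 of the 9 were lower (5.87% of all genes were). The summed signal of the 9 was 482 to 590 in Low, 227 to 247 in Medium and 137 to 145 in High. Of the fibroblast markers 2 of 6 measured were higher in High (13.8% of all genes were), Vim and Thy1 (log2 fold changes 1.45 and 0.69). The part of any of these cell types in the fall of Kif1a, Kif5c, Kif21a and Myo6 was not tested.

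Among the kinesins not listed as mitotic, Kif5b and Kif2a were the most abundant per length, at 35.5 and 13.9 per kb. Kif5b, the ubiquitous kinesin-1 heavy chain, was at 234, 139 and 175 in Low, at 258, 211 and 250 in Medium and at 233, 211 and 219 in High. Low replicate 1 lay at the level of the High libraries and the log2 fold change of 0.30 did not pass (adjusted p = 0.196). Kif2a, which takes microtubules apart at their ends, was at 71.9, 75.5 and 69.3 in Low, at 88.8, 72.3 and 72.9 in Medium and at 77.2, 63.1 and 71.8 in High. Its libraries overlapped, with a log2 fold change of -0.03 (adjusted p = 0.844).

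Kif13b, a kinesin-3 of membrane cargo, had the widest spread of any motor. The library values were 44.9, 4.11 and 14.2 in Low, 45.1, 33.8 and 44.5 in Medium and 41.6, 33.2 and 30.3 in High. Low replicate 1 lay within the Medium range, and the other Low libraries lay far under every Medium and High one. The log2 fold change was 1.22 ± 0.6 (SE, adjusted p = 0.157), and without Low replicate 1 it was 2.02 (adjusted p = 0.00148). Leaving out Low replicate 1 brought 7 kinesins not listed as mitotic past the threshold as higher, beside the 3 lower ones. That is 52.6%, against 43.3% of all genes (22.7% higher and 20.6% lower). With the replicate number as a block, 5 of the 19 passed in place of 3 (26.3%, against 38.8% of all genes), through Kif1b (adjusted p = 0.00805) and Kif26a (adjusted p = 0.0455).

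Shares within a family take out what moves all of its members together. Of the kinesin-1 signal per kb, Kif5c made up 7.23%, 7.94% and 6.93% in Low, 5.08%, 5.56% and 5.44% in Medium and 4.22%, 3.93% and 4.01% in High. The 3 populations did not overlap and the 3 Low libraries lay close together, unlike their levels. Kif5b made up 87.6% to 88.1% in Low, 90.4% to 92.3% in Medium and 91.9% to 92.9% in High.

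Of the signal per kb of Kif1a, Kif1b and Kif1c, Kif1a made up 16.1%, 17.7% and 19% in Low, 7.34%, 12.8% and 12.5% in Medium and 3.98%, 3.82% and 5.19% in High. Here too the populations fell in the order Low, Medium, High without overlap. For each of Kif5a, Kif5b, Kif5c, Kif1a, Kif1b and Kif1c, the share in High and in Low was set against each other by exact permutation (two-sided, p = 0.1), where 0.1 is the smallest p possible with 3 libraries a side, and 0.2 after Benjamini-Hochberg adjustment over the 12 shares tested. Shares within a family add up to the whole, so the 12 shares tested are not 12 independent results. Kif1b and Kif1c gained the share that Kif1a lost, and Kif5b gained what Kif5a and Kif5c lost. The levels of Kif1b and Kif1c did not pass between High and Low (log2 fold changes 0.51 and 0.39). The shares also reuse the values behind the calls of Kif1a and Kif5c and add no separate evidence. The shares of Kif3a, Kif3b and Kif3c, the kinesin-2 motors of the cilium, overlapped between High and Low (exact permutation p from 0.3 to 0.7). Of 6 ciliated cell markers 4 were measured and 1 passed (28.4% of all genes did). This was Foxj1, the transcription factor of motile cilia, which was lower in High (log2 fold change -1.40, adjusted p = 0.000524, limma). Kif9 and Kif27, kinesins of motile cilia, had log2 fold changes of -0.16 and -0.42 and did not pass.

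**Figure D3:**
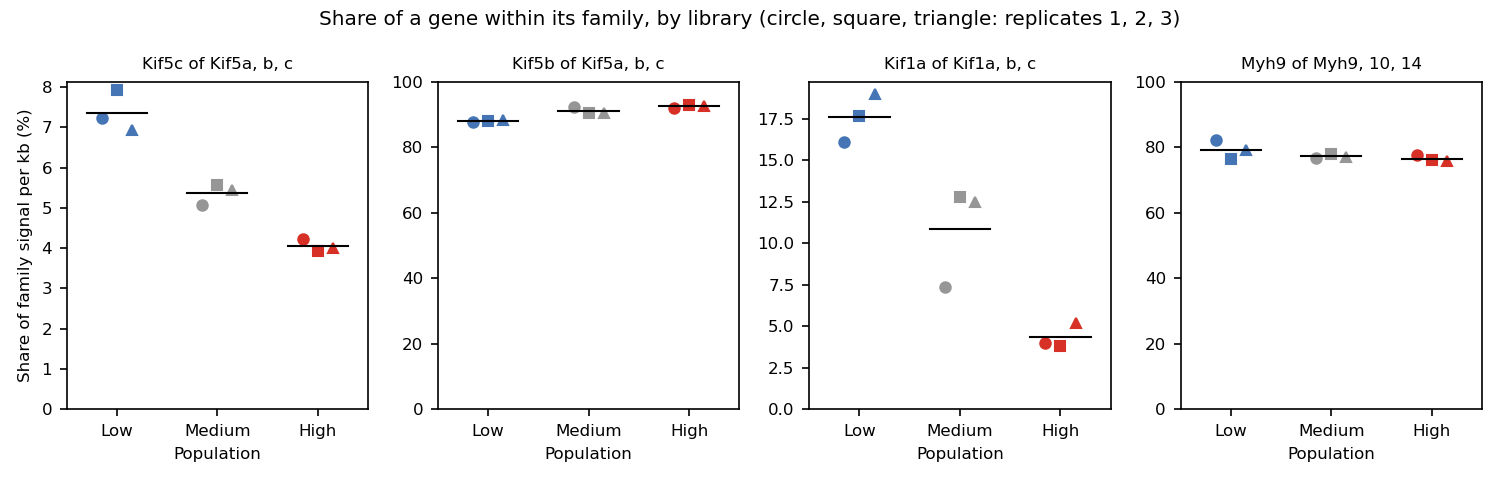
Share of a gene in the summed signal per kb of its family, in percent, for each library, with circles, squares and triangles for replicates 1, 2 and 3 and a line for the mean. Kif5c and Kif1a fall from Low to High without overlap, Kif5b rises, and Myh9 overlaps between the populations; the panels of Kif5c and Kif1a have their own scales.

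Mitotic kinesins were the most abundant class, with a median of 18.9 per kb against 3.33 for other kinesins, 1.92 for myosins and 6.98 for all genes. Between High and Low 9 of the 11 did not pass. Kif20a, a motor of the central spindle and the most abundant motor per length at 55.1 per kb, was at 209, 183 and 208 in Low, at 210, 199 and 206 in Medium and at 206, 206 and 194 in High. The libraries overlapped and the log2 fold change was 0.02 ± 0.08 (SE, adjusted p = 0.885). Kif2c, which takes microtubules apart at centromeres, was at 111, 88.2 and 103 in Low, at 119, 109 and 114 in Medium and at 116, 119 and 116 in High. High lay above Low without overlap, at a log2 fold change of 0.23 that did not pass (adjusted p = 0.0928) but did with the replicate block (adjusted p = 0.0478) and after the length correction (0.28, adjusted p = 0.0425).

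Kif14 and Kif20b, both needed to finish cytokinesis, were the mitotic kinesins that rose. Kif14, on chr1:136466343-136531511, was at 57.6, 31.9 and 37.6 in Low, at 72.6, 58.9 and 67.2 in Medium and at 73, 61.2 and 61.3 in High. Every Medium and High library was above every Low one. Its log2 fold change was 0.65 ± 0.19 (SE, adjusted p = 0.0287).

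Kif20b, on chr19:34922361-34975745, was at 93, 54.3 and 62.4 in Low, at 115, 92.1 and 105 in Medium and at 123, 95.7 and 102 in High. High did not overlap Low, with Low replicate 1 just under the lowest High library. Kif20b had a log2 fold change of 0.64 ± 0.18 (SE, adjusted p = 0.0283). Both calls were lost with rescaling to equal totals, with only 2 populations, with Low replicate 1 alone, and without Low replicate 2, Low replicate 3, High replicate 1 or High replicate 3, and that of Kif14 also without High replicate 2. Kif14 kept its call in 18 of 26 alternatives and Kif20b in 19, with an adjusted p of at most 0.448 and 0.438.

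The remaining mitotic kinesins did not pass, although 4 of 11 mitotic kinesins did with the replicate block (36.4%, against 38.8% of all genes) and 5 of 11 after the length correction (45.5%, against 37.8%). Kif11, the motor that pushes spindle poles apart, came nearest with a log2 fold change of 0.40 ± 0.15 (SE, adjusted p = 0.0691), which passed with the replicate block (adjusted p = 0.00814) and after the length correction (0.35, adjusted p = 0.0134). Kif22, which moves chromosome arms, was at 123, 124 and 127 in Low, at 129, 130 and 131 in Medium and at 135, 142 and 138 in High. That is a small step with no overlap between the 3 populations (log2 fold change 0.15 ± 0.06 SE, adjusted p = 0.107), and it passed after the length correction (0.17, adjusted p = 0.0221). Kif15, which can stand in for Kif11, Kif23, the motor of the centralspindlin complex, and Kif4, a chromosome motor, had log2 fold changes of 0.09, 0.10 and 0.12. Kif18a and Kif18b, which limit microtubule length, were at 0.08 and -0.03. In total, 10 of 11 mitotic kinesins had a log2 fold change above 0, and 4 of 11 lay above Low without overlap, against 20.2% of all genes.

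**Figure D4:**
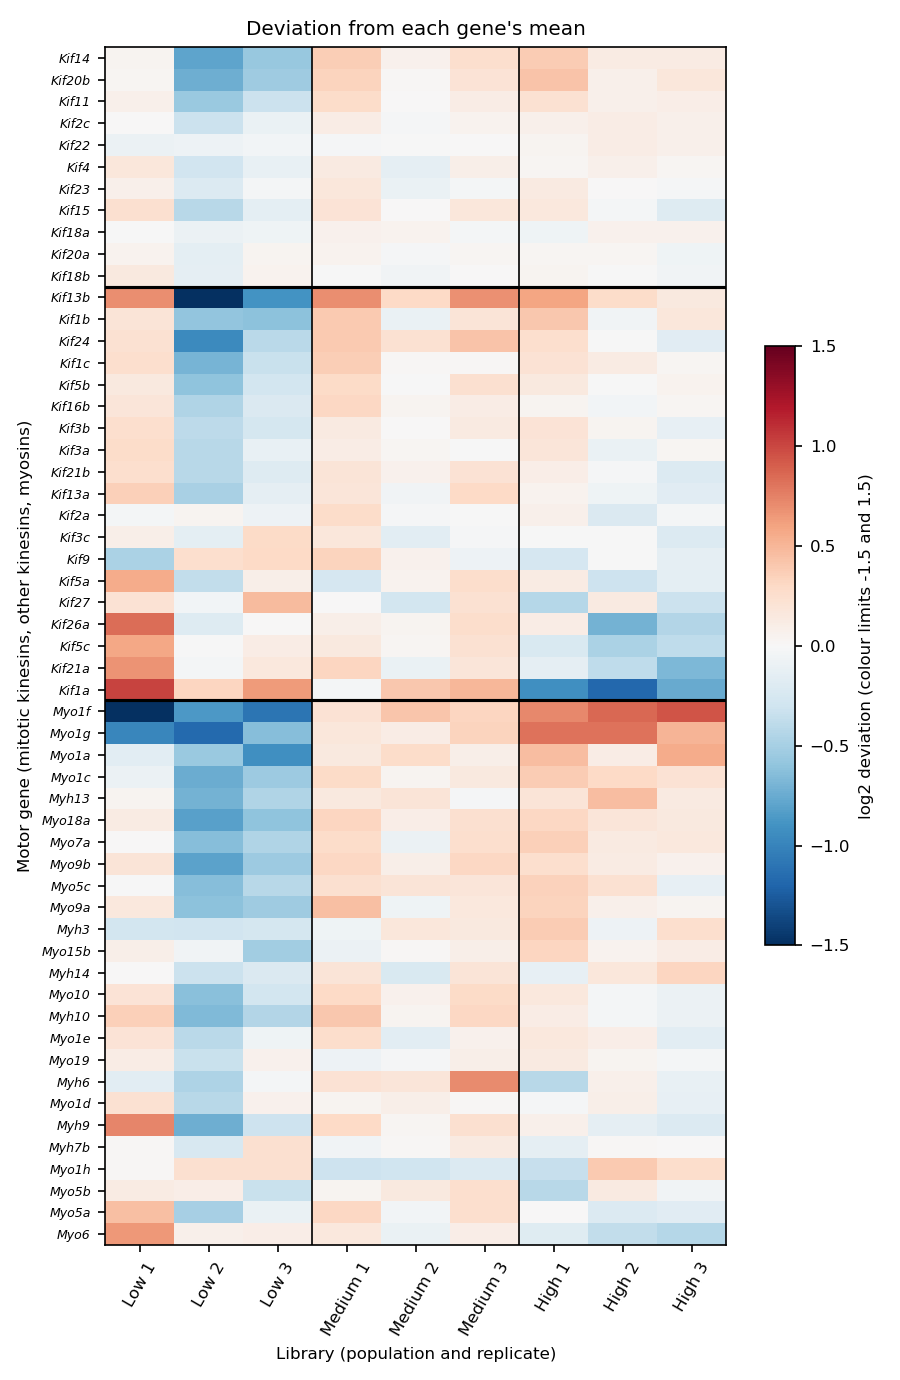
Deviation of the motor genes from their means over the 9 libraries, on the log2 scale, in rows by class and in columns by library. Low replicate 2 is the palest or bluest of the Low libraries for most genes, Low replicate 1 the reddest, and Myo1f and Myo1g are blue in the 3 Low and red in the 3 High libraries, with Kif1a the reverse.

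The spread within Low ran through most motors. Low replicate 1 held the highest of the 3 Low values in 46 of 56 motors (82.1%, against 43.3% of all genes). The median ratio of Low replicate 1 to Low replicate 2 was 1.61 for motors and 1.02 for all genes. By class it was 1.26 for mitotic kinesins, 1.67 for other kinesins and 1.62 for myosins. The median deviation of the 56 motors from their means was 0.13, -0.41 and -0.21 in the 3 Low libraries and 0.03, -0.17 and -0.07 after the length correction. Myo1f went against this order, with Low replicate 1 its lowest library.

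**Figure D5:**
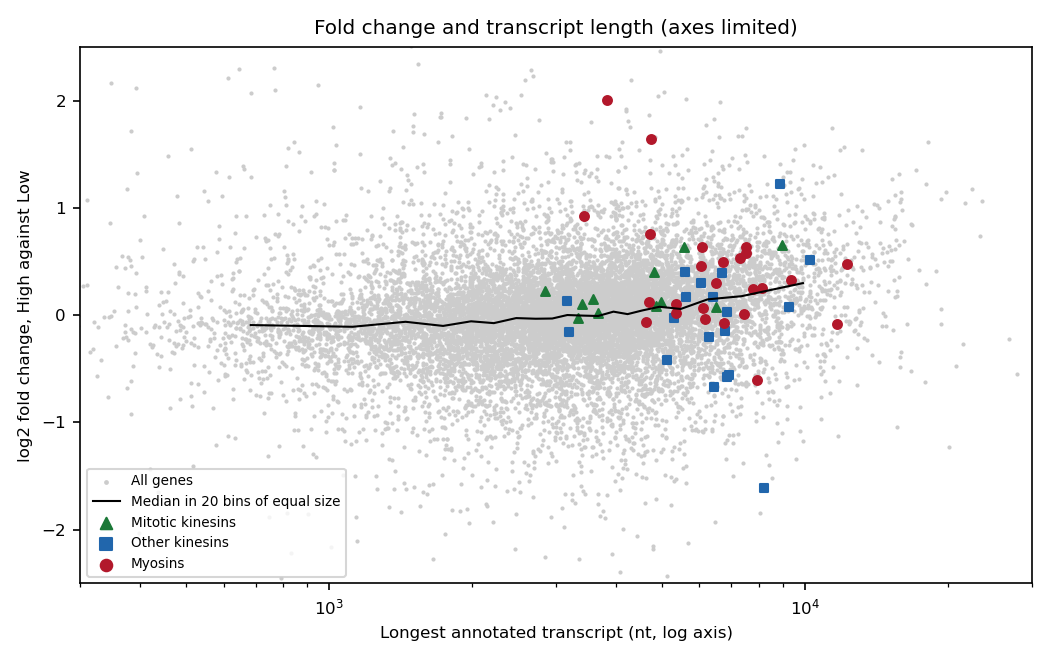
Log2 fold change in High against Low of all genes (grey) and of motor genes (coloured by class), against the length of the longest annotated transcript in nt on a log axis; genes outside the limits are not drawn. The median over all genes rises with length, and Myo1f, Myo1g and Kif1a stand well away from it.

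Medium against Low asked whether the motors had moved by the middle of the sort. Of 56, 5 passed, all higher in Medium (8.93%, against 12% of all genes, 6.14% higher and 5.87% lower): Myo1f, Myo1g, Myo1c, Myo1a and Kif14. The log2 fold changes were 1.48 ± 0.16 (SE, adjusted p = 0.000651) for Myo1f and 1.13 ± 0.16 (SE, adjusted p = 0.00326) for Myo1g. They were 0.61 (adjusted p = 0.0308) for Myo1c, 0.67 (adjusted p = 0.0463) for Kif14 and 0.72 for Myo1a, again as a description. The calls of Myo1f and Myo1g were kept under every alternative that tested them, and the other 3 were lost in 10 or more. None was lower by limma, where 0 of 56 also had an unadjusted p under 0.05 in that direction, against 1974 of the 13499 genes. By edgeR and DESeq2 0 motors were lower too, against 759 and 887 of all genes. After the length correction 12 were higher and 3 lower, when 20% of all genes passed (11.3% higher and 8.67% lower). The 3 lower were Kif1a (-0.63, adjusted p = 0.0276), Kif5c (-0.29, adjusted p = 0.0374) and Myo6 (-0.47, adjusted p = 0.00686). Without Low replicate 1, 29 motors passed, all higher, when 38% of all genes did (20.3% higher and 17.7% lower).

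High against Medium asked what changed in the upper part of the sort. Kif1a was the only motor that passed (1.79% of motors, against 0.407% of all genes, 0.0815% higher and 0.326% lower), lower in High with a log2 fold change of -1.24 ± 0.2 (SE, adjusted p = 0.0367). Medium exceeded High 2.66-fold in mean signal. The call was lost in 8 of 26 alternatives, among them the rescaling to equal totals and leaving out any of the High or Medium libraries, with an adjusted p of at most 0.193. Myo1f had a log2 fold change of 0.52 (adjusted p = 0.209) and Myo1g of 0.51 (adjusted p = 0.261), both without overlap between the populations, as 3 motors were higher and 5 lower (over all genes 9.34% and 10.8%). No motor was called higher by limma, edgeR or DESeq2, and 2 had an unadjusted p under 0.05 in limma. Without Low replicate 1, Myo1f passed as higher (0.52, adjusted p = 0.0335), when 1.53% of all genes did (0.496% higher and 1.03% lower), and it passed with only 2 populations too. After the length correction Kif1a and also Kif5c (-0.43, adjusted p = 0.031) passed as lower, when 2.16% of all genes did (0.807% higher and 1.36% lower). Among the 19 kinesins not listed as mitotic, 18 had a log2 fold change below 0, with a median of -0.19. Over all genes it was 6589 of 13499, with a median of 0.01. Of the 19, 16 did after the length correction, with a median of -0.13.

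Whether Medium lay at the midpoint of High and Low was tested as the departure of Medium from their mean. By limma no motor departed after adjustment, nor did any of the 13499 genes (0%). At an unadjusted p under 0.05, 5 of 56 motors did (8.93%, against 5.67% of all genes). By edgeR and DESeq2 0 motors were called, against 0 and 17 of all genes. Of the motors, 50 of 56 had a departure above 0, with a median of 0.20, against 6671 of the 13499 genes and a median of 0. Corrected for length, it was 42 of 56, with a median of 0.07, and with Low replicate 1 alone 31 of 56, with a median of 0.02. Without Low replicate 1, 3 myosins passed, all above 0, when 0.504% of all genes did (0.43% above and 0.0741% below 0). High against Low, Medium against Low and this departure share libraries, so their values stand side by side and do not support each other.

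Partners of the motors were taken from lists of light chains, adaptors, regulators and spindle proteins. Of 25 myosin partners 19 were measured, and 1 passed between High and Low (28.4% of all genes did): Myl9, a regulatory light chain of smooth muscle and nonmuscle myosin, at 5.07, 8.41 and 5.97 in Low, 4.91, 3.24 and 3.7 in Medium and 2.71, 3.29 and 2.49 in High. It fell, with a log2 fold change of -0.94 (adjusted p = 0.00607). The abundant light chain Myl6 and the calmodulins that serve as light chains of class I myosins (shown by Calm2 and Calm3) had log2 fold changes of 0.09, -0.15 and -0.03 and did not pass. After the length correction 2 myosin partners were higher and 3 lower, against 37.8% of all genes called, among them Mylpf, a skeletal muscle light chain (0.60, adjusted p = 0.000374).

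All 21 kinesin partners were measured, and 3 were higher and 2 lower, against 28.4% of all genes called. With the length correction 6 were higher and 2 lower. Kifc3, a minus-end kinesin outside the naming rule, was at 10.5, 7.78 and 6.84 in Low, at 17, 14.4 and 15.1 in Medium and at 22.4, 19.6 and 20.4 in High. Its populations did not overlap, and the log2 fold change was 1.24 (adjusted p = 0.000257). Trak1 and Rhot2, which fasten kinesin-1 to mitochondria, rose by 0.75 and 0.36 on the log2 scale (adjusted p = 0.00274 and 0.00469). Arl8a, the lysosomal GTPase that recruits kinesins, and the light chain Klc3 fell by 0.61 and 0.68 (adjusted p = 0.00164 and 0.0281). The light chains Klc1, Klc2 and Klc4 and the kinesin-2 subunit Kifap3 did not pass.

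All 20 spindle partners of the mitotic kinesins were measured, and 6 were higher and 2 lower, as many as after the length correction, with a median of 0.10. Of all genes 13.8% were higher and 14.6% lower, and 19.8% and 18.1% after the length correction. Ect2, Bub1b, Prc1, Incenp, Aurkb and Top2a rose by 0.41, 0.38, 0.36, 0.33, 0.25 and 0.54 on the log2 scale (adjusted p from 0.0202 to 0.0485), and Cenpa and Ccnb2 fell by 0.59 and 0.38 (adjusted p = 0.0185 and 0.0345). Prc1, Incenp and Aurkb act at the central spindle with the mitotic kinesins. The proliferation marker Mki67 was at 263, 127 and 150 in Low, at 269, 183 and 229 in Medium and at 229, 173 and 173 in High, with overlap and a log2 fold change of 0.15 (adjusted p = 0.702). Low replicate 1 was again the highest Low library, as in most mitotic kinesins.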

How the data were processed

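RNA was measured in 9 libraries of sorted mouse ES cells, grouped by the labels. Per the labels' protocols, reads of 61 nt were sequenced from 1 end. Tools named in the submitters' processing notes, without their roles, are RSEM 1.17, cutadapt, limma and Picard; genome build, annotation and strand setting: not given in the sources used here. Deposited values are a signal per gene, read counts scaled per library by the authors, with column totals from 953055 to 1026948. They were whole multiples of 1 read in 100% of cases, within 0.001 read, which gave back the reads.

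The test was limma (3.58.1, under R 4.3.3), trended, on log2(signal + 1 CPM of each library's total), all 9 libraries and population as the only term, with Benjamini-Hochberg adjustment over 13499 genes and a threshold of 0.05. Genes had to reach 1 CPM in 3 libraries, which all did. Fold changes are on that log2 scale; ratios are of mean signal. Lengths and coordinates are those of GENCODE M21 (GRCm38), matched by identifier for 99.36% of genes, and the length correction removed a natural spline with 4 degrees of freedom per library, on the longest transcript. Levels per kb use that length. Genes whose reads could be shared are uncertain: Myo18a, Myo9b, Myo19, Kif20a, Kif18a, Kif4, Kif2a, Myh7b, Myo15b and Myo1h overlap coding genes of the opposite strand.

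The members, classes and gene lists were chosen with earlier results of these data known, so no test over a list is given. By the naming rule, Myo1f, Kif1a, the 6 members of each class with the largest called changes, members called in the other comparisons and the 2 most abundant per kb of each class are given by library, with each exception named. Some genes are counted but not reported here by name or drawn. Lists cover ES, muscle, neuron, leukocyte, trophoblast, fibroblast and ciliated cells and myosin, kinesin, spindle and dynein partners.

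Replicate numbers are shared across populations. Deviations of same-numbered High and Low libraries correlated at 0.53, 0.26 and 0.18, over the 0.1 set for treating them as paired, but High replicate 3 with Low replicate 2 (0.31) and High replicate 2 with Low replicate 3 (0.12) did too. For the other pairs of populations the rule was not met. Replicates differed by more than counting noise (chi-square over degrees of freedom from 2.36 to 56.9).

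Simulated High and Low data (13321 genes) returned as called 31.3% of the genes set to change 1.5-fold. At 2-fold it was 82.1% and at 4-fold 98.5%, and 7 of 148 calls were false. Only 200 genes were set to change, and no shift by transcript length was simulated. These rates therefore do not carry over to the motor calls. Alternatives varied the pseudocount, filter, normalization, variance model, weights, block, libraries, length correction and test (edgeR 4.0.16 and DESeq2 1.42.0 on recovered reads). The length correction without Low replicate 1, and Low replicate 1 alone, were added after seeing the data. As all genes passed the filter, the alternative without a filter repeats the main result. It is included in the counts of alternatives.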

Additional observations from a re-analysis of the deposited data

How the results depend on the processing

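Of the counts of calls recomputed, 124 stayed within 1.5 times the value reported and 121 did not; of the fold changes, 491 kept direction and call, 127 lost the call, 14 gained it and 12 changed sign. Calls are given below as all genes, then motors. For High against Low, motors called numbered 8 with libraries rescaled to the same total, 6 with only the 2 populations compared, 41 with sample weights (9129 genes; the weights did not converge), 23 with the length correction and replicate block (6047 genes), 29 with the length correction and Low replicate 1 left out (6108 genes), and 9 with Low replicate 1 alone (2152 genes). Mitotic kinesins called numbered 0 with rescaling and with 2 populations, 4 with the replicate block and 7 with weights. They numbered 5 with the length correction alone, with the block or without Low replicate 1. Other kinesins numbered 5 with the block, 6 with length correction and block, 11 with length correction without Low replicate 1, and 15 with weights. Myosins numbered 5 with rescaling, 4 with 2 populations, 6 with a mean of at least 5 CPM and 19 with weights. Leaving out each library in turn gave 2345 to 5846 genes, 6 to 30 motors, 0 to 4 mitotic kinesins, 1 to 10 other kinesins and 5 to 16 myosins, each highest without Low replicate 1.

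For High against Medium, all genes called numbered 260 with DESeq2, 179 with Low replicate 1 alone, 447 with the length correction without Low replicate 1, 89 with a mean of at least 5 CPM, 84 without a variance trend, 170 with 2 populations, 203 with the replicate block, 1080 with weights, 292 with the length correction and 489 with length correction and block. Motors called numbered 2 with 2 populations and with the length correction, 4 with the length correction and block or without Low replicate 1, and 6 with weights. With rescaling they numbered 0 (56 genes). Leaving out a library gave 11 to 206 genes and 0 to 2 motors.

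For Medium against Low, all genes called numbered 391 with Low replicate 1 alone, 4471 with the length correction without Low replicate 1, 656 with 2 populations, 3656 with the replicate block, 8784 with weights, 2699 with the length correction and 3839 with length correction and block. Motors called numbered 8 with DESeq2 (2012 genes), 3 with edgeR (1490 genes) and 3 with a mean of at least 5 CPM (1287 genes). They numbered 2 with rescaling (1438 genes), 2 with 2 populations, 20 with the replicate block and 40 with weights. With the length correction they numbered 15 alone, 19 with the block and 25 without Low replicate 1. Leaving out a library gave 527 to 5123 genes and 2 to 29 motors, and for the departure of Medium 0 to 3 motors.

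The log2 fold change of Myh9 in High against Low changed sign to -0.11 with DESeq2, -0.12 with edgeR and with quantile normalization, -0.02 with rescaling, -0.15 with the length correction with or without the block, -0.82 with Low replicate 1 alone, -0.07 without High replicate 1, -0.30 without Low replicate 2 and -0.09 without Low replicate 3, and over all single libraries left out it ran from -0.30 to 0.43. Kif5b (-0.09) and Kif13b (-0.36) did so with Low replicate 1 alone, a setting that assumes the lone library to vary like the others. The cause was not tested. Counting limits Myo1a, Myo1h, Kif9, Kif27, Myo5b, Myh6 and Myh7b, with under 10 reads in their lowest library.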

Other observations

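Dynein, the motor that walks towards the minus end of microtubules, belongs to neither family named above. Of 24 genes of dynein, dynactin and their adaptors, 22 were measured, and between High and Low 1 was higher and 3 were lower, with a median log2 fold change of -0.11, when 28.4% of all genes passed. After the length correction 4 were higher and 7 lower, when 37.8% of all genes passed, and Ndel1 no longer did (-0.26, adjusted p = 0.0996). Nde1, a dynein regulator of the spindle and of nuclear movement, was at 85.3, 79.9 and 82.6 in Low, at 94.8, 86.2 and 93.2 in Medium and at 103, 95.9 and 97.1 in High. Its High libraries lay above all others (log2 fold change 0.26, adjusted p = 0.028, limma). The related Ndel1 was lower in High (-0.33, adjusted p = 0.038), as were the light chains Dynll2 (-0.35, adjusted p = 0.0194) and Dynlt3 (-0.60, adjusted p = 0.0185).

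Cenpe, the kinetochore kinesin, Kifc1, a minus-end spindle motor, and Stard9, a kinesin of the centrosome, lie outside the naming rule. Cenpe was at 96.5, 47.1 and 58.2 in Low, at 107, 73.5 and 83.9 in Medium and at 104, 83.6 and 75.3 in High, with Low replicate 1 again the highest Low library. None of the 3 passed in High against Low, with log2 fold changes of 0.43, 0.13 and 0.33.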
